A study of Rattus norvegicus with 12 samples.

Results

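Calmodulin, protein kinase C (PKC), calcium/calmodulin-dependent kinase 2 (CaMK2) and calcineurin pass on the calcium and diacylglycerol signals that a hormone receptor raises inside a cell. The genes described here form a list by name, drawn up with earlier results of these data known, and the rule for their members uses no measured value: Calm2, Calm3, Prkca, Prkcb, Prkcd, Prkce, Camk2d, Ppp3ca and Rcan1. Their members on the array are all probe sets, groups of short probes read as 1 signal, whose single gene symbol in the platform annotation is 1 of these 9. That gave 14 of the 31099 probe sets, covering 8 of the 9 genes. Calm3 was matched by 0 probe sets and was not analysed here. Of the 14 probe sets, 12 passed a filter on low signal (mean log2 signal at or above the 40th percentile of all probe sets) and were tested, and each of the 8 genes had at least 1 of them.

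The receptor for gonadotropin-releasing hormone (GnRH) couples to the G protein Gq, which activates phospholipase C. Phospholipase C yields inositol trisphosphate, which releases stored calcium, and diacylglycerol. Calcium binds calmodulin, and calcium-calmodulin activates CaMK2 and the phosphatase calcineurin. Diacylglycerol activates the conventional PKC isoforms together with calcium, and some of the other isoforms, among them PKC delta and PKC epsilon, without it. In gonadotropes, calcium drives release of luteinizing hormone (LH), and PKC links the receptor to the MAPK cascade.

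The cells were primary cultures from the anterior pituitaries of adult female Sprague-Dawley rats whose ovaries had been removed 2 weeks earlier. They were enriched for gonadotropes by size, to 40 to 60% LH-positive cells by the labels, so the RNA also came from other pituitary cells. Each experiment pooled 13 to 15 pituitaries, and the medium of all wells contained estradiol and charcoal-treated serum. On day 3 of culture, wells received 10 nM GnRH or the same volume of vehicle medium, and lysates were made after 40 min. There were 6 vehicle and 6 GnRH samples, 2 of each agent in each of 3 separate preparations (enrichment sets I, II and III). In bulk RNA of this kind, fewer cells of a type and less RNA per cell cannot be told apart.

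The 12 arrays fell into a class of 5 with low signal of the spiked-in hybridisation controls (2264 to 11705) and a class of 7 with high signal (53482 to 320024). All of set I and vehicle 5 of set III were in the low class. The geometric mean of 27 bacterial control probe sets, taken here as background, was 14.8 to 22.4 on the low arrays and 52.8 to 183 on the high arrays. Vehicle 3 of set II stood apart (its median Spearman correlation with the rest was 0.376), and results that rest on it are given with and without it. Of 6 gonadotrope markers, 4 (Lhb, Fshb, Cga and Foxl2) were above background on all 12 arrays, Nr5a1 was so on 11, and Gnrhr, the GnRH receptor gene, was so on 3 vehicle and 4 GnRH arrays. Markers of somatotropes and lactotropes were also present, with 4 of 5 above background on all arrays.

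In vehicle cultures, 7 of the 8 genes had a probe set above background on all 6 arrays, and Prkcd had one above it on 5, vehicle 3 being the exception. Paralogs outside the 9 were also above background. Among other PKC genes, Prkci and Prkcz were above background on 6 of 6 vehicle arrays and Prkch on 5, each by its brightest probe set, whereas Prkcq was so on 4. Among CaMK2 genes, Camk2b and Camk2g were above background on 6 of 6 vehicle arrays and Camk2a on 5. The calcineurin A genes Ppp3cb and Ppp3cc and the B subunit gene Ppp3r1 were so on 6 of 6, and Ppp3r2 on 4. Probes differ in affinity, so these signals give presence above background and no order of abundance between paralogs. The cut at background held no margin, and the share of all probe sets above it was not counted. The erythrocyte markers Hbb and Alas2 were above it on 5 and 4 of 6 vehicle arrays, so passing it is weak evidence of expression.

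After 40 min of GnRH, no tested probe set of the 8 genes passed the test over all probe sets. Of the 12 tested probe sets, 0 passed as higher and 0 as lower (limma, Benjamini-Hochberg adjusted p from 0.981 to 1.00, n = 6 per group). Over the 18625 probe sets tested, 0.00537% passed as higher and 0% as lower. At an unadjusted p under 0.05 the count among the 12 was also 0, where 3.45% of all tested probe sets stood. The median log2 difference (GnRH minus vehicle) was -0.03 for the 12 and 0.04 for all tested probe sets. In each of the 12, the range of the 6 GnRH signals overlapped that of the 6 vehicle signals, and groups without overlap were rare on the whole array (0.0537% of probe sets in each direction). Signals are scaled to a trimmed mean of 500 on each array, log2 differences are of signal plus 16, and a test passed at an adjusted p under 0.05. The 95% intervals from limma, given below as folds, show which sizes of change the data leave possible. In data simulated with the spread of these arrays, most changes of 1.5 on the log2 scale were missed, so a call of 0 does not show that the genes were unchanged.

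**Figure D1:**
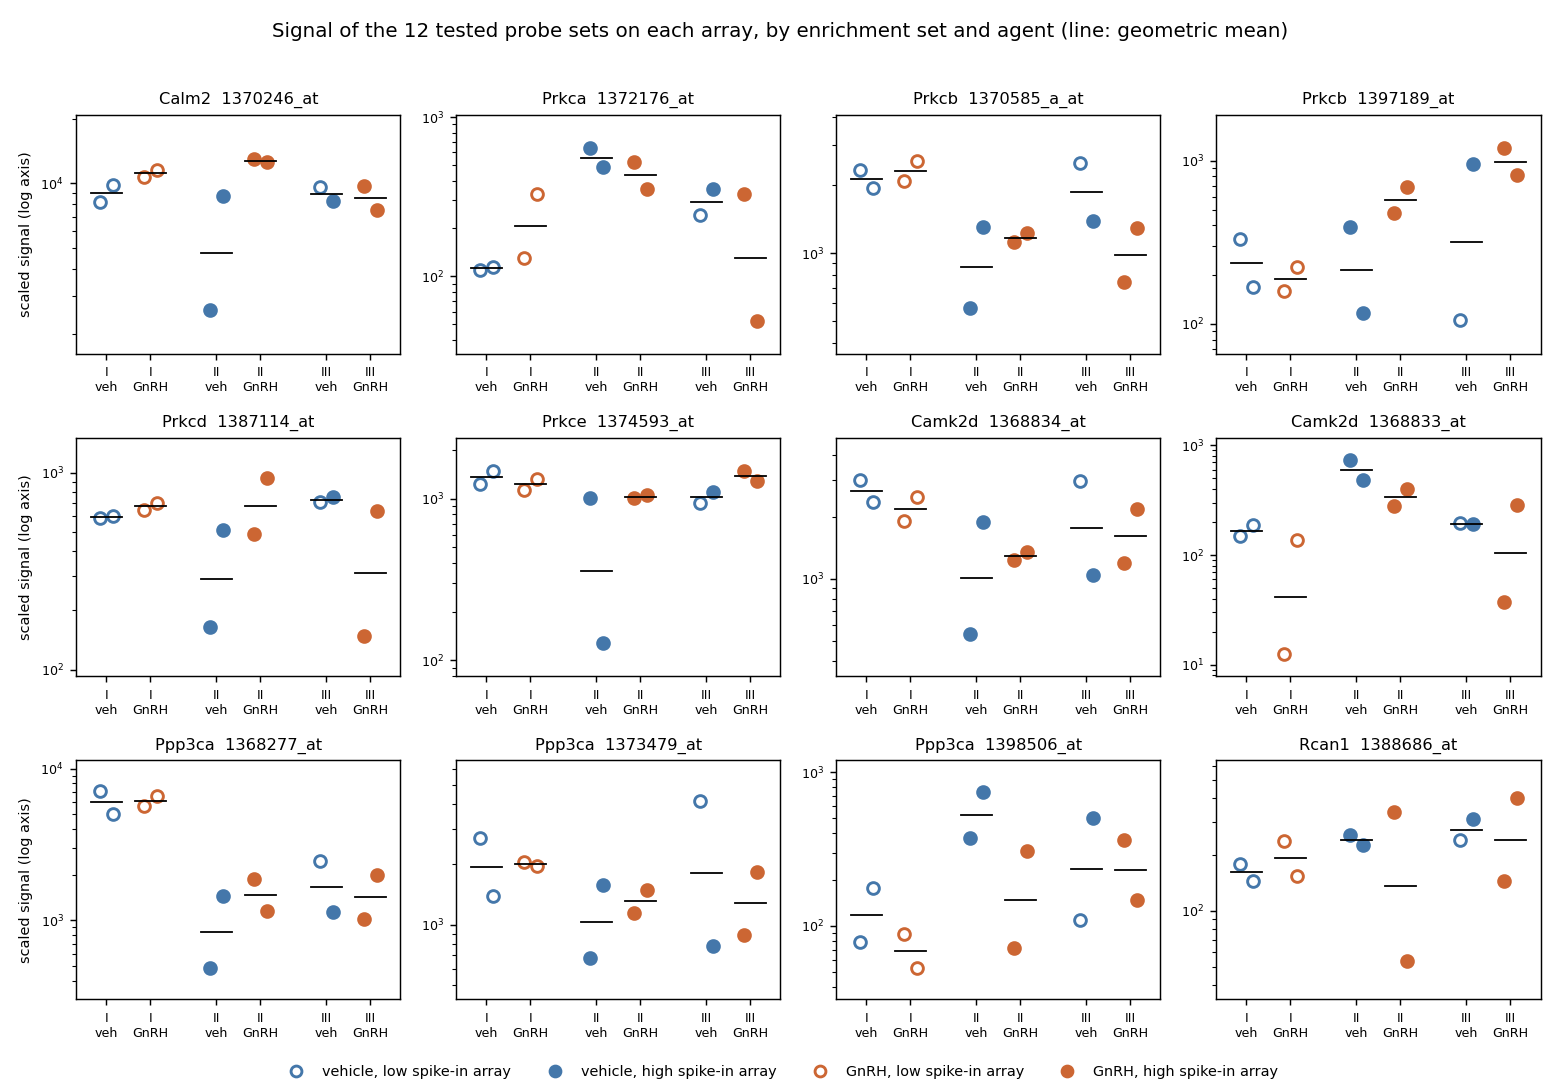
Scaled signal (log axis) of the 12 tested probe sets on each of the 12 arrays, by enrichment set and agent. Open points are arrays with low and filled points arrays with high spike-in signal, and lines are geometric means of 2 arrays. In every panel the GnRH points overlap the vehicle points over the 3 sets, and Ppp3ca 1368277_at is high in set I.

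Calm2 encodes calmodulin, the calcium sensor on which both CaMK2 and calcineurin depend. Its probe set was above background on 12 of 12 arrays, by at least 14.1-fold. In vehicle samples its signal was 2587 at the lowest, 8520 at the median and 9843 at the highest. In GnRH samples it was 7497, 11142.5 and 12980.1. The lowest vehicle value was that of vehicle 3, and the other 5 vehicle samples lay between 8209 and 9843. The GnRH signal was the higher in 30 of the 36 GnRH-vehicle pairs.

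Expressed as a log2 difference, Calm2 was at 0.55 ± 0.32 (SE, n = 6 per group; limma adjusted p = 0.981), or 1.47-fold with an interval from 0.915 to 2.35. It was 0.31 within set I, 1.42 within set II and -0.07 within set III. In set II the signals were 2587 and 8721 in vehicle and 12980.1 and 12536 in GnRH samples, so both GnRH samples lay above both vehicle samples. Without vehicle 3 the difference over all sets was 0.23. The size of the Calm2 difference thus moved by over 1.5 times with that 1 array.

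The conventional PKC isoforms, which need both calcium and diacylglycerol, were measured for Prkca (PKC alpha) and Prkcb (PKC beta). Prkca was a dim probe set, with vehicle signals of 109.9, 299 and 644 (lowest, median, highest) and GnRH signals of 52.3, 330 and 522. It was above background on 11 of 12 arrays, the exception being GnRH 6. Vehicle samples of set I were low (109.9 and 114) and those of set II high (644 and 483), and GnRH samples showed no common shift from them. GnRH minus vehicle came to -0.19 ± 0.51 on the log2 scale (SE; limma adjusted p = 0.995), where set I gave 0.81, set II -0.36 and set III -1.01.

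Prkcb had 3 probe sets, and they did not give the same picture. The brightest, 1370585_a_at, had vehicle signals of 572, 1668 and 2517 (lowest, median, highest) and GnRH signals of 744, 1258 and 2554. It was above background on every array, and both agents spanned nearly the same range. Its log2 difference was -0.12 ± 0.31 (SE; limma adjusted p = 0.993), with an interval from 0.583 to 1.44 as a fold.

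The second Prkcb probe set, 1397189_at, had vehicle signals of 105, 249 and 959 and GnRH signals of 159.7, 582 and 1188. Its log2 difference was 0.86 ± 0.54 (SE; limma adjusted p = 0.981), or 1.82-fold with an interval from 0.818 to 4.03. Set I gave -0.30, set II 1.34 and set III 1.54. In set III the vehicle samples were far apart, at 105 in vehicle 5, the low spike-in array of that set, and 959 in vehicle 6, while GnRH samples were at 1188 and 811. Without vehicle 5 the difference over all sets was 0.40, and with arrays weighted by quality, most heavily those of set I, it was 0.16. The third probe set, 1368240_a_at, was above background on 0 of 12 arrays, was not tested, and gives no level.

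Of the PKC isoforms that respond to diacylglycerol without calcium, Prkcd (PKC delta) and Prkce (PKC epsilon) are members. Prkcd signals were 164, 596 and 752 in vehicle samples (lowest, median, highest) and 148, 646 and 941 in GnRH samples. Most samples lay close together, and 1 of each agent fell far below the rest: vehicle 3, where the probe set was at 0.896 of the background signal, and GnRH 5. The log2 difference of 0.05 ± 0.47 (SE; limma adjusted p = 1.00) covered unlike values within sets: set I gave 0.17, set II 1.17 and set III -1.18. It was -0.28 without vehicle 3 and 0.46 without GnRH 5.

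Prkce signals were 127, 1061 and 1494 in vehicle samples and 1016, 1217 and 1487 in GnRH samples. The GnRH samples were tightly grouped, with an SD of 0.21 on the log2 scale against 1.25 for vehicle, where vehicle 4 alone was low. The log2 difference was 0.58 ± 0.41 (SE; limma adjusted p = 0.981), or 1.49-fold with an interval from 0.822 to 2.72. Without vehicle 4 it was 0.12, and the within-set differences were -0.14, 1.45 and 0.43. Without vehicle 3, the other array of set II vehicle, it was 0.83, and with arrays weighted by quality, most heavily those of set I, 0.25.

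**Figure D2:**
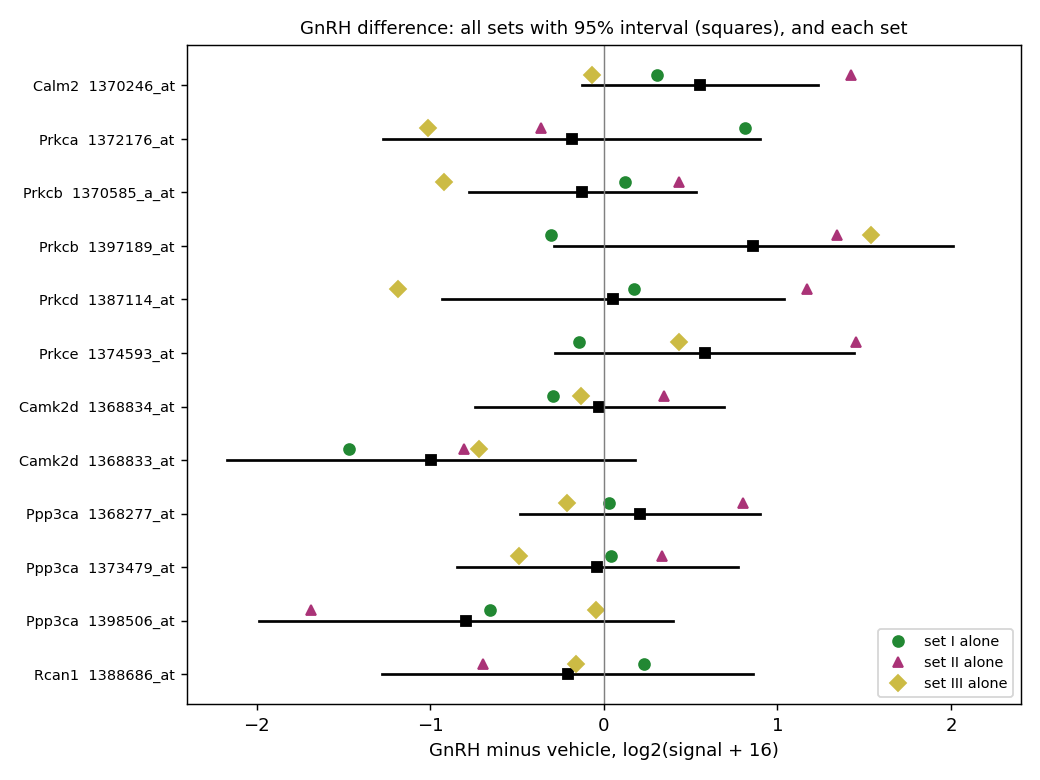
GnRH minus vehicle difference in log2(signal + 16) for the 12 tested probe sets. Squares are the values over all 3 sets with their 95% intervals from limma, and coloured points are the differences within each set (2 against 2 arrays). Every interval includes 0, and 2 probe sets, Camk2d 1368833_at and Ppp3ca 1398506_at, lie below 0 in each set.

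Camk2d encodes the delta isoform of CaMK2, a multisubunit kinase that phosphorylates channels and transcription factors. Its brightest probe set, 1368834_at, gave vehicle signals of 538, 2122 and 3022 (lowest, median, highest) and GnRH signals of 1199.5, 1624 and 2489. The GnRH range lay inside the vehicle range. The log2 difference was -0.03 ± 0.34 (SE; limma adjusted p = 1.00), with a fold interval from 0.598 to 1.61.

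A dimmer Camk2d probe set, 1368833_at, had vehicle signals of 148, 194 and 733 and GnRH signals of 12.5, 207 and 404. Its log2 difference was -0.996 ± 0.56 (SE; limma adjusted p = 0.981), a fold of 0.501 with an interval from 0.222 to 1.13. It was lower in each set, by -1.47, -0.80 and -0.72, and GnRH 1 (12.5) and GnRH 5 (37.5) lay below background, which leaves its size uncertain. Without GnRH 1 the difference was -0.64. The third, 1371263_a_at, was above background on 9 arrays and fell under the filter. Its untested differences were -0.50 (set I), 2.20 (set II) and -1.06 (set III).

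Ppp3ca encodes the catalytic A subunit (alpha) of calcineurin, the calcium-dependent phosphatase that acts on NFAT transcription factors. Its brightest probe set, 1368277_at, had vehicle signals of 483, 1944 and 7088.5 (lowest, median, highest) and GnRH signals of 1023, 1934 and 6555. The medians were nearly equal, and the spread within each agent was wide. The log2 difference was 0.21 ± 0.33 (SE; limma adjusted p = 0.983), with a fold interval from 0.715 to 1.86, and it was -0.06 without vehicle 3.

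A second Ppp3ca probe set, 1373479_at, gave a log2 difference of -0.04 ± 0.38 (SE). The third, 1398506_at, had vehicle signals of 78.4, 273 and 745 and GnRH signals of 53.5, 118 and 359. Its log2 difference was -0.80 ± 0.56 (SE; limma adjusted p = 0.981), with -0.66, -1.69 and -0.04 in the 3 sets. Without GnRH 3 it was -0.45. It was above background on 11 arrays, GnRH 3 being below it.

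Rcan1 encodes a small protein that binds and inhibits calcineurin, and its transcription is itself known to be raised by calcineurin acting through NFAT. It has more than 1 promoter, and which transcripts its probe set reads was not tested. Because it is a known feedback target, the 250 bases before its transcription start in RefSeq (build GRCr8, minus strand, chr11:45118237-45118486) are shown. That start lies 69829 bases inside the RefSeq gene, so it is an internal start. Capitals mark matches, on either strand, to GGAAAA (the core of NFAT sites), TGACGTCA (the cAMP response element), TGANTCA (the AP-1 site) and TATAAA (the TATA box, which matches on both strands with overlap).
Rcan1: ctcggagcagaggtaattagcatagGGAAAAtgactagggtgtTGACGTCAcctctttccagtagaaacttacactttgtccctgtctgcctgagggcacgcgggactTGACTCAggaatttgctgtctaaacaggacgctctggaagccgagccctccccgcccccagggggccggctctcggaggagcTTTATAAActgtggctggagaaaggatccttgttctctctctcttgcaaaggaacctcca
Counted from the start, the matches ran from -225 to -220 for GGAAAA, from -207 to -200 for TGACGTCA, from -142 to -136 for TGANTCA and from -60 to -53 for TATAAA. Among 33469 RefSeq promoter windows of the same length, 21.6% held GGAAAA, 1.59% TGACGTCA, 6.34% TGANTCA and 12.9% TATAAA. Of the 9 genes, 6 had a promoter in the table, and the entries of Calm2, Calm3 and Prkcb were missing. A match describes letters and is no measure of binding.

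Rcan1 did not pass the test in either direction after GnRH. Its signals were 144, 232 and 309 in vehicle samples (lowest, median, highest) and 53.8, 195 and 399.9 in GnRH samples. GnRH samples held both the lowest value, in GnRH 4, where the probe set was below background, and the highest, in GnRH 6. The log2 difference was -0.21 ± 0.50 (SE; limma adjusted p = 0.993), or 0.865-fold with an interval from 0.412 to 1.81. Set I gave 0.23, set II -0.70 and set III -0.16, and without GnRH 4 the difference was 0.14.

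The study's own criterion for a regulated gene was a fold of at least 1.50 with agreement in at least 50% of pairwise comparisons. It was applied here to signal plus 16, without GCOS change calls. Of the 12 tested probe sets, 1 passed as higher (8.33%) and 2 as lower (16.7%). Over all tested probe sets 7.62% passed as higher and 7.6% as lower. The probe set that passed as higher was Prkcb 1397189_at, with 55.6% of 36 pairs at 1.50-fold or more. Those that passed as lower were Camk2d 1368833_at and Ppp3ca 1398506_at, each with 52.8% of pairs. These 2 passed the filter on low signal (log2 of 7.35) only through their vehicle samples. Their vehicle means were 8.16 and 8.05, and their GnRH means, 7.17 and 7.25, lay under the filter. Their calls as lower are thus not independent of the filter. None of the 3 was the brightest probe set of its gene, and the other tested probe sets of Prkcb, Camk2d and Ppp3ca did not pass. Whether probe sets of 1 gene differed from each other in the GnRH response was not tested. The Camk2d call was lost without vehicle 3, vehicle 4, GnRH 1 or GnRH 5, and the Ppp3ca call without vehicle 4, vehicle 6 or GnRH 2. The Prkcb call was kept in each of the 12 omissions. The criterion uses the difference of plain group means, without the set term, which ranged from 0.60 to 1.23 on the log2 scale over these omissions, against 0.40 without vehicle 5 in the model with sets. Prkcb is also known from leukocytes, of which 1 of 5 markers, Cd74, was at a higher mean in GnRH samples (log2 difference 0.51, limma adjusted p = 0.981). Their summed signal was 666 to 2918 in vehicle and 643 to 1803 in GnRH samples, and Ptprc, the defining marker, was above background on 4 vehicle and 3 GnRH arrays. The part of leukocytes in the Prkcb value was not tested.

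The test between preparations passed for 1 member probe set, a share near that of the whole array. Ppp3ca 1368277_at differed between enrichment sets (limma F test adjusted p = 0.00649, n = 4 per set), the 1 call among the 12 tested probe sets (8.33%), where 6.02% of all tested probe sets were called. That background moved with single arrays, from 0.682% without vehicle 1 to 12.5% without vehicle 5, and was 0.736% without GnRH 1, 0.94% without GnRH 2, 2.01% without vehicle 2 and 3.57% without vehicle 6. Its signals in set I were 7088.5 and 5051 in vehicle and 5708 and 6555 in GnRH samples. In set II they were 483 and 1434 in vehicle and 1869.5 and 1153 in GnRH samples, and in set III 2454 and 1125 in vehicle and 1023 and 1997 in GnRH samples. All 4 arrays of set I lay above all 8 others, while sets II and III overlapped. The geometric means of sets I, II and III were 6049.8, 1106 and 1541. The other tested Ppp3ca probe sets, 1373479_at and 1398506_at, did not pass (limma F test adjusted p = 0.481 and 0.259). The geometric mean of 1398506_at was lowest in set I (89.8, against 279 in set II and 232 in set III). The call of 1368277_at held in all 12 omissions of 1 array (limma adjusted p of 0.00165 to 0.0477).

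Array class moved with this difference. Ppp3ca 1368277_at was 4.23-fold brighter on the 5 low spike-in arrays than on the 7 high ones, a ratio of geometric means. Within set III, vehicle 5, the only low array there, was 1.86-fold above the geometric mean of the other 3. Set I and the low class share 4 arrays, so preparation and array class cannot be told apart for set I.

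The brightest probe sets of Camk2d and Prkcb leaned the same way as that of Ppp3ca. Camk2d 1368834_at was 2.02-fold and Prkcb 1370585_a_at 2.18-fold brighter on the low arrays. In set III, vehicle 5 was 2.15-fold and 2.29-fold above the other 3 arrays for these probe sets. Between enrichment sets neither passed (limma F test adjusted p = 0.202 for Camk2d and 0.132 for Prkcb). The second Ppp3ca probe set, 1373479_at, was 2.03-fold brighter on the low arrays (adjusted p = 0.481 between sets by limma).

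Dimmer probe sets of the same 3 genes leaned the other way. Ppp3ca 1398506_at was 3.07-fold, Camk2d 1368833_at 2.65-fold and Prkcb 1397189_at 2.96-fold brighter on the high arrays. In set III, vehicle 5 was at 0.365 times the geometric mean of the other 3 arrays for Ppp3ca 1398506_at and 0.108 times for Prkcb 1397189_at. For Camk2d 1368833_at it was at 1.54 times, so that probe set ran the other way within set III. The background controls were 4.89-fold brighter on the high arrays as well. Set against the background of the same array, these 3 dim probe sets were at 5.15, 5.43 and 10.1 times background on the low arrays and at 3.24, 2.95 and 6.12 times on the high arrays. The part of the background in these differences was not tested. The 3 probe sets that met the study's fold criterion are these same 3. After GnRH, that of Prkcb passed as higher and those of Ppp3ca and Camk2d as lower. The part of array class in these calls was not tested.

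**Figure D3:**
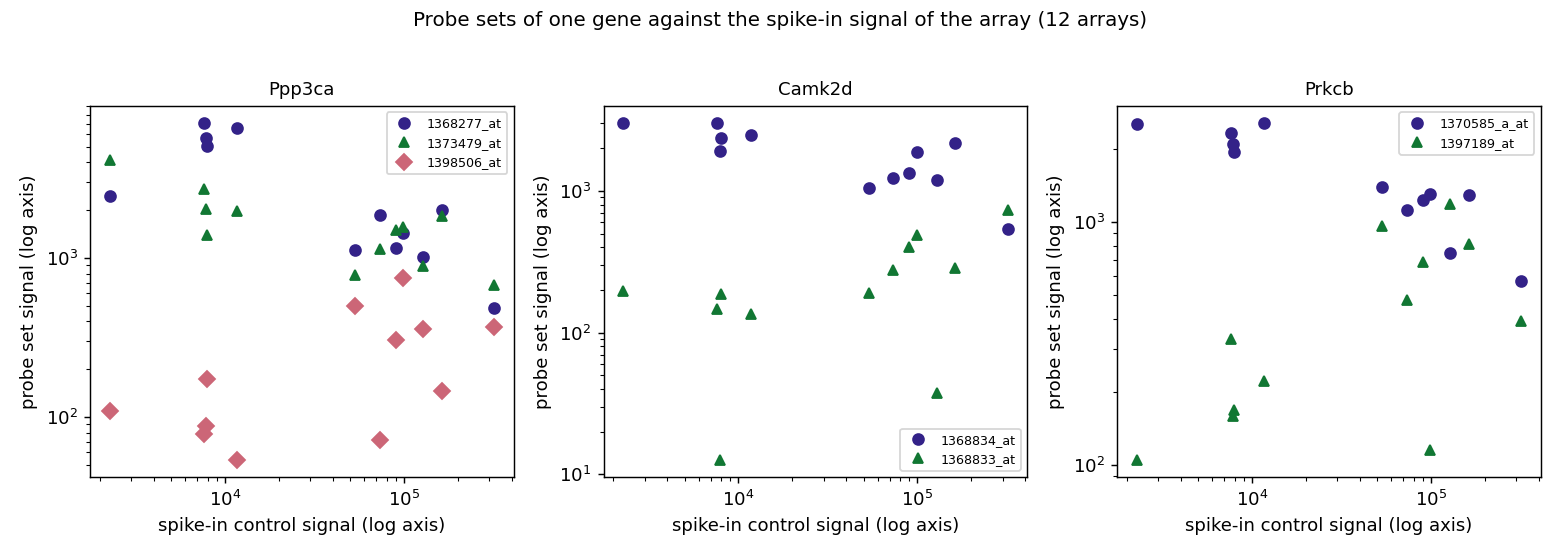
Signal of the tested probe sets of Ppp3ca, Camk2d and Prkcb against the geometric mean signal of the spike-in controls of the array (12 arrays, both axes log). The brightest probe set of each gene (circles) is higher on the 5 arrays at the left, with overlap for Camk2d (GnRH 6 at 2175, GnRH 1 at 1903). The dimmest tested one is higher on most of the 7 arrays at the right.

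The other members had smaller ratios between array classes. Prkcd, Prkce and Calm2 were 1.50-fold, 1.45-fold and 1.23-fold brighter on the low arrays, Prkca was 1.92-fold and Rcan1 1.13-fold brighter on the high arrays. In set III, vehicle 5 was at 1.71, 0.735 and 1.14 times the geometric mean of the other 3 arrays for Prkcd, Prkce and Calm2. It was at 1.32 times for Prkca and 0.92 times for Rcan1, so Prkce and Prkca ran the other way there. In all, 7 of the 12 tested probe sets were brighter on the low arrays on the log2 scale, and 50.4% of all tested probe sets were. No test between enrichment sets passed for any of these 5 genes (limma adjusted p from 0.191 to 0.784).

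Whether the GnRH difference itself depended on the preparation was tested by the interaction of set and agent. It passed for 0 of the 12 probe sets (limma F test adjusted p from 0.929 to 0.990), and for 0% of all tested probe sets. Without vehicle 4, which leaves 1 vehicle array in set II, 4.38% of all tested probe sets passed and still 0 of the 12. In the simulated data, a log2 change of 4 put into the GnRH samples of set II alone was recovered in 29% of cases, so most were missed. At an unadjusted p under 0.05 the count was 0 of 12, against 5.36% of all. Of the 12 probe sets, 0 were higher in all 3 sets and 2 were lower in all 3 (16.7%), Camk2d 1368833_at and Ppp3ca 1398506_at. Both passed the filter on low signal only through their vehicle samples. Over all tested probe sets 12.6% were higher and 11.4% lower in all 3 sets.

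Among 52 other genes of calcium and diacylglycerol signalling, 40 had a tested probe set, and each is given by its brightest. After GnRH 22 had a positive and 18 a negative difference, with a median log2 difference of 0.09, and 0 passed in either direction (limma adjusted p). At an unadjusted p under 0.05 there was 1 gene of the 40, where 3.45% of all tested probe sets stood. It was Camk2n1, which encodes an inhibitor of CaMK2. Its log2 difference was -0.92 ± 0.40 (SE; limma adjusted p = 0.981), and it was -0.55 (set I), -1.95 (set II) and -0.26 (set III). Its other probe set fell under the filter and was not tested, and gave 0.12 (set I), -2.30 (set II) and 0.47 (set III). Next in order of p were Rcan3, a relative of Rcan1 (-0.73 ± 0.36), and Ppp3cb, the beta form of the calcineurin A subunit (0.58 ± 0.33). The regulatory B subunit gene Ppp3r1 was at 0.13 ± 0.29. The other PKC genes tested were Prkch at 0.13 ± 0.55, Prkci at 0.12 ± 0.38 and Prkcz at -0.84 ± 0.61, and the other CaMK2 genes were Camk2a at -0.40 ± 0.63, Camk2b at -0.16 ± 0.23 and Camk2g at -0.51 ± 0.48.

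**Figure D4:**
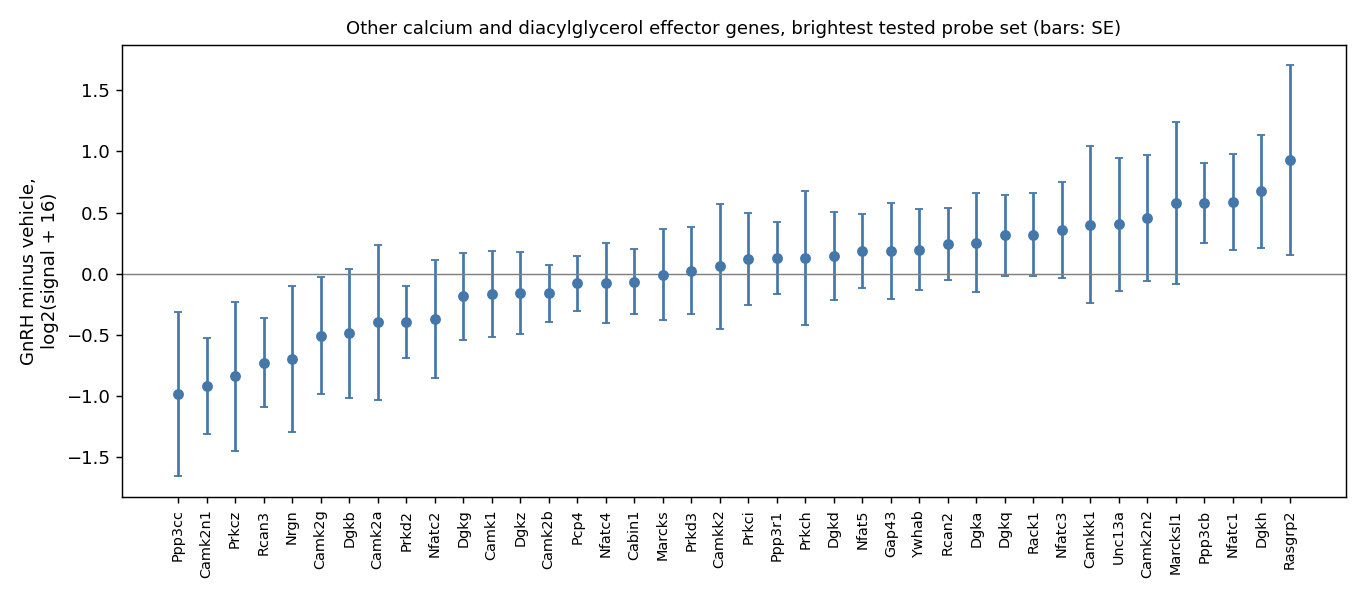
GnRH minus vehicle difference in log2(signal + 16) for 40 other calcium and diacylglycerol effector genes, each by its brightest tested probe set. Points are limma estimates over 6 vehicle and 6 GnRH samples and bars are SE. The values spread around 0, from Ppp3cc at -0.99 to Rasgrp2 at 0.93, and 0 passed the test. The other tested probe set of Rasgrp2, nearly as bright (mean log2 7.42 against 7.47), was at -0.996, so the direction for Rasgrp2 is not settled.

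For each gene, the tested probe set with the most similar pattern was sought among 13655 with a single symbol, after set means were subtracted. Likeness was the Spearman correlation over the 12 arrays, which share array quality as well as biology, and the maximum over so many candidates is high by construction. The nearest were Ankrd28 for Ppp3ca (0.986), Nup93 for Calm2 (0.972), Rab8b for Prkca (0.972), Magi3 for Camk2d (0.965) and Cnih4 for Prkcb (0.958). For Prkcd, Rcan1 and Prkce they were Klf10 (0.937), Clic2 (0.937) and Wdr12 (0.923).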

How the data were processed

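RNA of 12 samples was amplified in a pair of T7 rounds and hybridised to Affymetrix Rat Expression Array 230 v2.0, per the labels' protocols. The authors computed the deposited intensity of each probe set with GCOS, per the series' design text; its version is not given in the sources used here. Arrays were brought to a common trimmed mean of 500 over non-control probe sets (2% trimmed at each end), and log2(signal + 16) was taken, so folds of dim genes are understated. Probe sets at or above the 40th percentile of mean log2 value were tested: a log2 of 7.35, or a signal of 147. Prkca, Rcan1, Camk2d 1368833_at and Ppp3ca 1398506_at lay just inside (mean log2 8.05, 7.77, 7.66 and 7.65) and Camk2d 1371263_a_at just outside (6.87). The agents were compared with limma 3.58.1 (R 4.3.3), with enrichment set and agent in the model, an intensity trend and Benjamini-Hochberg adjustment over 18625 probe sets at 0.05. F tests compared sets and tested the interaction. On data simulated with the residual spread of each probe set, estimates lay close to the changes put in, most log2 changes of 3 were called, and most of 1.5 were missed. The simulated noise was independent between probe sets and arrays, so shifts shared by a whole array were not part of it.

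Symbols came from the platform annotation, and promoters from RefSeq (GRCr8). Named are all members, other effector genes called or with the 3 smallest p, and the nearest pattern of each gene. Paralogs of the members, Ppp3r1, Ppp3cc, Rasgrp2, Rcan2, Unc13a, Dgkz and Dgkg were named outside this rule, after values were seen. Members and lists were chosen with earlier results of these data known. The sample titles call each sample a biological replicate. Nothing else in the labels says that wells of 1 preparation were separate cultures. The p-values thus measure the spread between these samples, which may be technical. Signals of different probe sets were not compared as levels, because probes differ in affinity. Alternatives were other pseudocounts, quantile normalization, other filters, no set term, a replicate block, no trend, array weights, each set alone and each array left out.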

Additional observations from a re-analysis of the deposited data

Results flagged for a closer look

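Within the 28 groups of 6 samples examined (14 probe sets, 2 agents), 4 held a sample far from the others by Dixon's ratio of gap to range. It was taken on log2(signal + 16), and its nominal rate is about 1 in 20. Each group pools 3 preparations and both array classes, so that rate need not apply. The share over all probe sets was not counted, so the 4 are no trait of these genes. Vehicle 3 stood apart over the whole array (median Spearman correlation 0.376). Vehicle 3 was low for Calm2 (2587 against a next lowest of 8209, ratio 0.864) and for Prkcd (164 against 512, ratio 0.742). GnRH 5 was low for Prkcd (148 against 488, ratio 0.636), and vehicle 4 was low for Prkce (127 against 947, ratio 0.809). On the signals themselves the ratios were 0.775, 0.592, 0.428 and 0.60 in this order, and only that of Calm2 passed the critical value for 6 samples.

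For 2 of the 14 probe sets, both GnRH samples lay above both vehicle samples in 1 enrichment set and below both in another. With 2 samples of each agent per set, such separation arises easily. Its share over all probe sets was not counted, so the 2 flags are no result about these genes. Prkcd was higher in set I and lower in set III, by log2 differences 1.36 apart, and its interaction of set and agent did not pass (limma adjusted p = 0.929). Camk2d 1371263_a_at was higher in set II and lower in set III, 3.26 apart. It lay under the filter on low signal, and that difference was not tested.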

How the results depend on the processing

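The count of 0 member probe sets called for GnRH against vehicle held under each alternative run. For the interaction (0) and for enrichment sets (1, Ppp3ca 1368277_at) only quantile normalization, no filter and the omission of each array were run, and the counts held under these. Over all probe sets, quantile normalization brought the share called between enrichment sets from 6.02% to 3.32%. With the replicate block (replicate number as a block) 0 were called. Replicate numbers did not pair samples: with the means of set and agent removed, same-numbered samples correlated at -0.03, -0.03 and -0.14 in sets I, II and III. With quantile normalization, 3 log2 differences turned from negative to positive: Prkcb 1370585_a_at (0.017), Camk2d 1368834_at (0.13) and Ppp3ca 1373479_at (0.081). With array weights Prkca (0.40) and Rcan1 (0.060) did. Leaving out each array gave -0.47 to 0.21 for Prkca, -0.34 to 0.082 for Prkcb 1370585_a_at, -0.28 to 0.46 for Prkcd, -0.30 to 0.18 for Camk2d 1368834_at, -0.060 to 0.40 for Ppp3ca 1368277_at, -0.28 to 0.32 for Ppp3ca 1373479_at and -0.44 to 0.14 for Rcan1, so the direction of these 7 is not settled. The other 5 kept their direction, but not their size: array weights gave 0.16 for Prkcb 1397189_at, 0.25 for Prkce and 0.34 for Calm2, and quantile normalization 0.28 for Calm2. The array weights were 2.13 to 4.87 in set I and 0.173 to 0.916 in sets II and III, so set I counts most in the weighted values. From 1 (without vehicle 4) to 3 member probe sets passed the fold criterion. At an unadjusted p under 0.05, 1 member of 12 appeared without vehicle 3 (Prkce), without GnRH 6 or with array weights (Camk2d 1368833_at), and in set II alone (Calm2). Of all 18625 tested probe sets, 718, 661, 965 and 808 were under 0.05 in these settings, in the same order. The cause of these changes between settings was not tested.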

Other observations

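Among the 59 tested probe sets of other calcium and diacylglycerol effectors, 4 differed between enrichment sets (limma F test adjusted p under 0.05), where 6.02% of all tested probe sets did, a background that ran from 0.682% to 12.5% as single arrays were left out. Both tested probe sets of Rcan2, a relative of Rcan1 that also binds calcineurin, were among them (adjusted p = 0.0375 and 0.0413), and like Ppp3ca 1368277_at they were brighter on the low spike-in arrays, by 1.30 and 0.90 on the log2 scale. Unc13a, which encodes a diacylglycerol-binding priming factor of exocytosis, and Dgkz, a diacylglycerol kinase gene, ran the other way (adjusted p = 0.0383 and 0.0394). They were dimmer on the low arrays, with differences of -2.59 and -1.63. The dimmest of 3 tested probe sets of Dgkg, another diacylglycerol kinase gene, had a GnRH minus vehicle log2 difference of 1.40 (limma unadjusted p = 0.0201, adjusted p = 0.981). The 2 brighter ones were at -0.18 and -0.05. The dimmest passed the filter on low signal (7.35) only through its GnRH mean (8.09). Its vehicle mean was 6.69, and it was above background on 4 of 6 vehicle arrays. At an unadjusted p under 0.05 (limma) the 59 held 1 higher and 1 lower probe set, where 3.45% of all tested probe sets stood.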
